A study of Mus musculus with 4 samples.

Results

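The 10 genes described here encode AP-1 subunits and other immediate early proteins: Fos, Fosb, Fosl1, Fosl2, Jun, Jund, Atf3, Egr1, Egr2 and Ier3. They were taken by gene name from the array annotation, which gave 11 probes of 55681, read on all 4 arrays (10 genes of 22340 named). RNA came from mouse neural cells that all lacked p53 (p53-/-), labelled as brain of E14.5 embryos and grown without serum, with 1 array for each of 4 groups. The group NSCL61-Ceacam1sh had a hairpin RNA directed at Ceacam1, an immunoglobulin-family adhesion molecule, and NSCL61 was its parent, a cell line that initiates gliomas and derives from p53-null neural stem cells given an activated Ras. The group NSC-Ceacam1L was made to express Ceacam1 in its long form, and NSC was its parent, the neural stem cells themselves. Vector-carrying cells were selected in hygromycin for 1 week, and the labels do not state whether NSC and NSCL61 carried an empty vector. The series made these cells to find genes downstream of Ceacam1.

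AP-1 is a dimer of a Jun protein with a Fos or ATF protein, joined through a leucine zipper and bound to DNA through the basic region beside it. In resting cells most of these genes are nearly silent, and growth factors, serum or stress switch them on within minutes through MAP kinases, before any new protein is needed. Fos and Fosb carry strong activation domains, whereas Fosl1 and Fosl2 (the Fra proteins) lack the one of Fos and are sustained longer, Fosl1 being well known as a gene kept high by Ras and ERK signalling. Jund is expressed more steadily than Jun, and Atf3 is a stress-induced relative that can repress. Egr1 and Egr2 are zinc finger factors of the same early response, and Ier3 is an early response protein tied to ERK signalling and survival. Ier3 is no DNA-binding factor, so it belongs with the immediate early genes but not with the transcription factors.

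Promoter sequence from RefSeq (GRCm38.p6) was matched for 8 of the 10 genes, that is all but Fosl1 and Egr1. The windows below give the 160 bases before the transcription start of Fos, which was lower with the hairpin, of Fosb and Egr2, which were both lower in NSCL61 than in NSC, and of Ier3, which was well above background on all arrays but NSCL61. Capitals mark matches, in either orientation, to the cyclic AMP response half-site TGACG, the CArG box bound by serum response factor, the EGR motif GCGNGGGCG and the kappa B motif, each searched on both strands.
Fos (chr12:85473730-85473889, plus strand): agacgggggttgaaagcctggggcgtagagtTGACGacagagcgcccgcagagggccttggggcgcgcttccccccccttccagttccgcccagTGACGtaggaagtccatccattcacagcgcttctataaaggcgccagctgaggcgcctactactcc
Fosb (chr7:19310046-19310205, minus strand): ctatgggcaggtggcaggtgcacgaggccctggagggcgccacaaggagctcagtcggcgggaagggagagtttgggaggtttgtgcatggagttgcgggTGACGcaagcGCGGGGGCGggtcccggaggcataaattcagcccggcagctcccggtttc
Egr2 (chr10:67537709-67537868, plus strand): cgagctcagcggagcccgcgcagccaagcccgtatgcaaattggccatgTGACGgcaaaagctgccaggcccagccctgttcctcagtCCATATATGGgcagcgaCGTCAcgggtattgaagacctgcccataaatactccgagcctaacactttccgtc
Ier3 (chr17:35821553-35821712, plus strand): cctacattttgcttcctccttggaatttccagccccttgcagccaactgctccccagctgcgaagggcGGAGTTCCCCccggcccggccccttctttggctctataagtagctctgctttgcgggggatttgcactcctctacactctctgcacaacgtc
The half-site began 129 and 66 bases before the start of Fos and 60 bases before that of Fosb, and Egr2 held a CArG box 72 bases before the start shown. Over 300-base windows, which run from 250 bases before each start, TGACG was present for 4 of the 8 genes (Fos, Fosb, Atf3 and Egr2), against 20.8% of 32851 promoters. The CArG box was found for Egr2 alone, at 4 of its 5 listed starts, which overlap in part (1.63% of all promoters). The EGR motif was found for Fosb and Fosl2 (5.55%), and the kappa B motif for Fos, Fosb, Fosl2, Egr2 and Ier3 (8.46%). For Egr2 the kappa B match lay at another listed start than the one shown. A gene counted if any of its listed starts matched, whereas the percentages are of single promoters. No window of the 8 genes held the full response element TGACGTCA, which contains the half-site (1.79%), or the AP-1 motif TGANTCA (7.81%). These matches describe the letters of the windows and do not show binding.

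Values below are log2 signals scaled so that 0 is the 75th percentile of each array, and they are compared across arrays for 1 probe at a time. The ± after a difference is the spot error modelled at scanning, which leaves out biological variation. A gene was called higher or lower at a 2-fold difference (1 on the log2 scale) if its probe was well above background on the brighter array, as flagged at scanning. The call uses the measured difference, so that a gene seen on 1 array only can be called with a bound under 2-fold. With 1 array for each group no difference has a replicate check or a p-value, and precision is limited by there being so few arrays. All were on 1 slide, where position and group cannot be told apart. Between 27421 and 29552 probes were well above background on an array, and the 75th percentiles of the signals were 439 to 571. Ceacam1 was not analysed here (0 probes under that name), so its gain or loss was not checked and the groups are called as labelled.

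**Figure D1:**
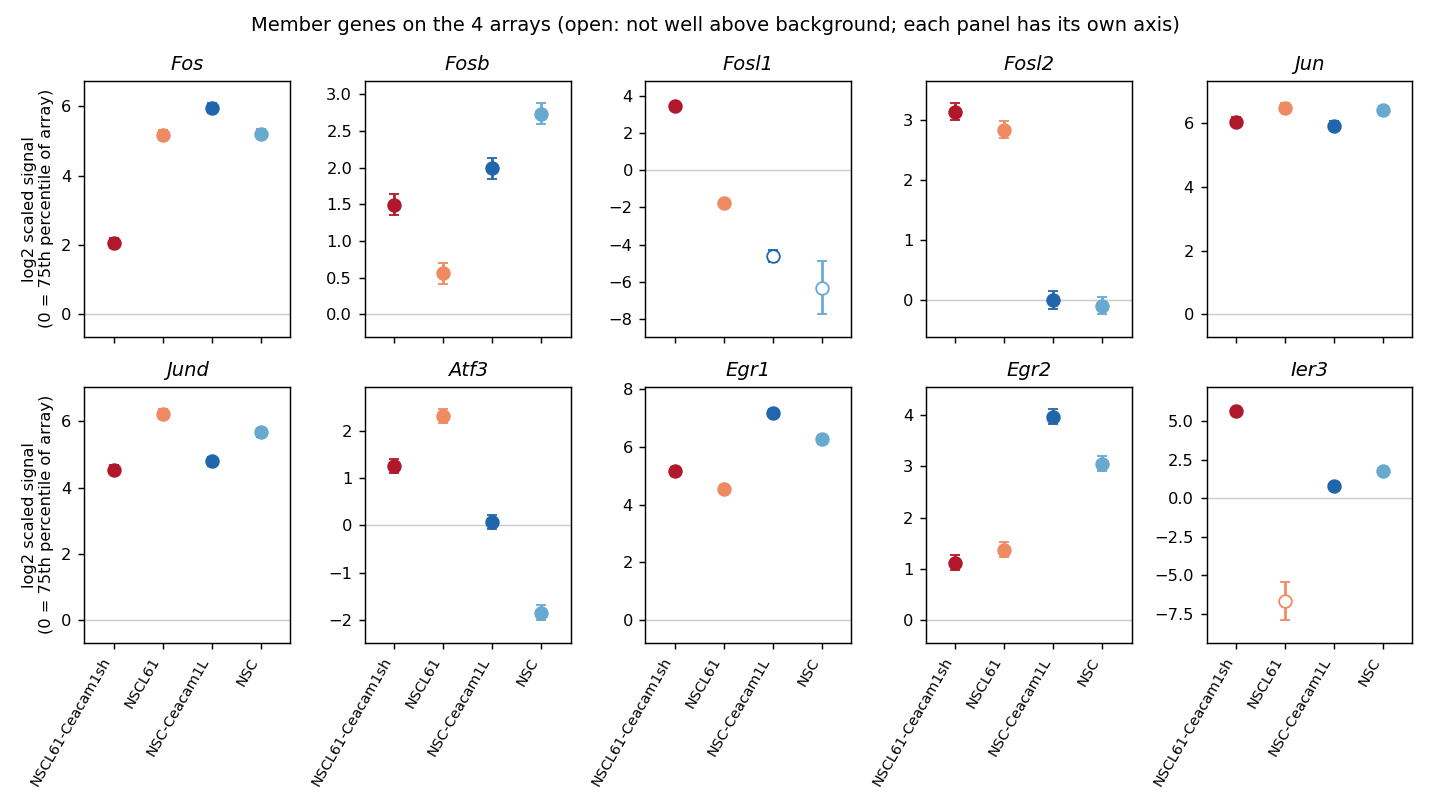
Log2 scaled signal of each of the 10 genes (vertical axis, 0 is the 75th percentile of the array, 1 panel and 1 vertical scale a gene) on the 4 arrays (horizontal axis), with the modelled error of the spots as bars and open circles for signals not well above background. Fos is low on NSCL61-Ceacam1sh alone, Fosl1 and Ier3 are high there, and Fosl2 is high on both NSCL61 arrays.

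Among the Fos family, Fos was read by probe A_52_P262219 (NM_010234, mm9 chr12:86817900-86817959, plus strand), which was printed 10 times on each array. Its level was 2.05 on NSCL61-Ceacam1sh, 5.17 on NSCL61, 5.95 on NSC-Ceacam1L and 5.19 on NSC. The NSCL61-Ceacam1sh array was the low one, NSCL61 and NSC lay close together, and NSC-Ceacam1L was the highest. The spots ran from 1.84 to 2.14 on NSCL61-Ceacam1sh, against 5.001 to 5.22 on NSCL61, with SDs between spots of 0.10 and 0.06. They ran from 5.86 to 5.99 on NSC-Ceacam1L, against 5.14 to 5.24 on NSC, where 1 spot on each array was left out as an outlier. Spots of NSCL61-Ceacam1sh and NSCL61 did not overlap, nor did those of NSC-Ceacam1L and NSC, whereas those of NSCL61 and NSC did. Such spots repeat 1 probe on the same array, so their spread leaves out that between cultures. The difference was -3.12 ± 0.20 between NSCL61-Ceacam1sh and NSCL61 (8.68-fold lower), and 411 of 12965 genes seen on both arrays had a more negative one. It was 0.76 ± 0.20 between NSC-Ceacam1L and NSC and -0.03 ± 0.20 between NSCL61 and NSC.

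**Figure D2:**
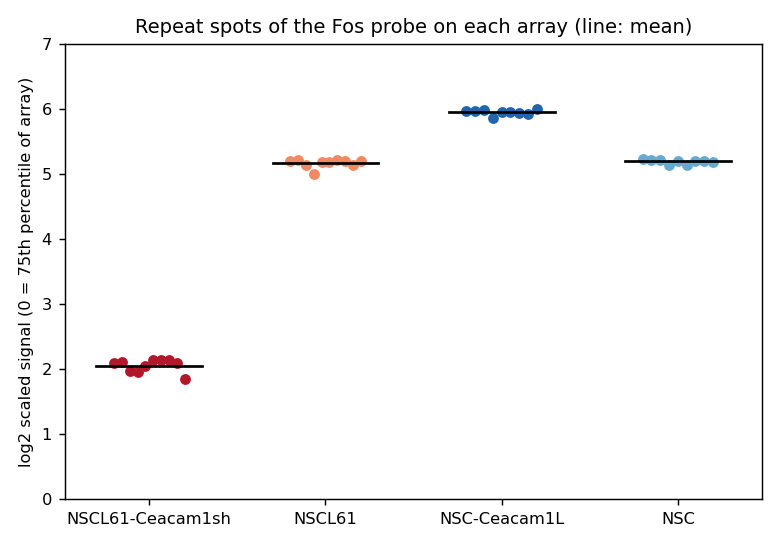
Log2 scaled signal of the repeat spots of the Fos probe (points; 10 on each NSCL61 array and 9 on each NSC array) with their mean (line), by array. The spots of NSCL61-Ceacam1sh lie between 1.84 and 2.14 and all others between 5.001 and 5.99.

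Fosb, the closest relative of Fos, followed another order (probe A_55_P2113051, NM_008036, mm9 chr7:19888168-19888227, minus strand). Its level was 1.496 on NSCL61-Ceacam1sh, 0.56 on NSCL61, 1.99 on NSC-Ceacam1L and 2.73 on NSC. NSCL61 was lowest and NSC highest, with a difference of -2.17 ± 0.20 between them, a 4.50-fold lower signal in NSCL61. The difference of 0.93 ± 0.20 between NSCL61-Ceacam1sh and NSCL61 and that of -0.74 ± 0.20 between NSC-Ceacam1L and NSC stayed under 2-fold, although with median and spike-in scaling the hairpin difference was 1.35 and 1.38.

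Fosl1 was seen on the NSCL61 arrays only (probe A_51_P308796, NM_010235, mm9 chr19:5455496-5455555, plus strand). Its level was 3.47 on NSCL61-Ceacam1sh and -1.77 on NSCL61, against -4.61 on NSC-Ceacam1L and -6.32 on NSC, both not well above background. The signal on NSCL61-Ceacam1sh was 37.8-fold that on NSCL61 (5.24 ± 0.21), and 68 of 12965 genes seen on both arrays had a more positive difference. NSCL61 itself was at least 5.66-fold higher than NSC. This bound sets the bright signal over the higher of the dim probe's own signal and the lowest one well above background on the dim array. It holds for the background subtraction used here only. Between the NSC arrays no difference of Fosl1 could be given.

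Fosl2 separated the tumour line from the stem cells (probe A_55_P1995195, NM_008037, mm9 chr5:32460076-32460135, plus strand). Its level was 3.14 on NSCL61-Ceacam1sh and 2.84 on NSCL61, against 0.00 on NSC-Ceacam1L and -0.10 on NSC. Both NSCL61 arrays lay above both NSC arrays, and the arrays within each pair lay close together. NSCL61 was 7.69-fold higher than NSC (2.94 ± 0.21), and 151 of 13389 genes seen on both arrays had a more positive difference. A second Fosl2 probe starts at position 738 of the transcript, in the coding sequence, whereas the first starts at 5726. Its sequence is printed because it reads another stretch of the same transcript.
Fosl2 probe A_51_P507242 (mm9 chr5:32455088-32455147, plus strand): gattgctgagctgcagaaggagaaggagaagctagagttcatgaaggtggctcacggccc
This probe read -2.73 on NSCL61-Ceacam1sh and -2.44 on NSCL61, against -6.65 on NSC-Ceacam1L and -5.81 on NSC, both not well above background. The scanner software found no spot of it on NSCL61-Ceacam1sh, NSCL61 or NSC, so its signals on both NSCL61 arrays are those of unfound spots. It too read higher on both NSCL61 arrays than on both NSC arrays, but the order of the NSCL61 arrays was turned round. Between the NSC arrays no difference could be given by this probe. NSCL61 was at least 3.55-fold higher than NSC by it, and NSCL61-Ceacam1sh differed from NSCL61 by -0.29 ± 0.25, against 0.30 ± 0.20 by the first probe.

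The Jun family varied less than Fos. Jun, the main partner of the Fos proteins (probe A_55_P2158990, NM_010591, mm9 chr4:94716928-94716987, minus strand), read 6.04 on NSCL61-Ceacam1sh, 6.48 on NSCL61, 5.92 on NSC-Ceacam1L and 6.41 on NSC. No Jun difference reached 2-fold, at -0.44 ± 0.20 for NSCL61-Ceacam1sh over NSCL61, -0.49 ± 0.20 for NSC-Ceacam1L over NSC and 0.07 ± 0.20 for NSCL61 over NSC. Under spike-in scaling the first of these was 0.0060 and the last -0.15. Jund (probe A_51_P357744, NM_010592, mm9 chr8:73224436-73224495, plus strand) read 4.54 on NSCL61-Ceacam1sh, 6.22 on NSCL61, 4.79 on NSC-Ceacam1L and 5.66 on NSC. Both manipulated cultures read lower than their parents, NSCL61-Ceacam1sh by -1.68 ± 0.20 (3.21-fold lower) and NSC-Ceacam1L by -0.88 ± 0.20, which stayed under 2-fold. The NSC-Ceacam1L difference was -0.49 under spike-in scaling, -0.52 under quantile normalization and -0.47 under cyclic loess.

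Atf3, the stress-induced subunit, was lowest in NSC (probe A_52_P452689, NM_007498, mm9 chr1:192994547-192994606, minus strand). Its level was 1.25 on NSCL61-Ceacam1sh, 2.32 on NSCL61, 0.08 on NSC-Ceacam1L and -1.85 on NSC, with all 4 arrays apart from each other by more than the modelled error. NSCL61 was 18.0-fold higher than NSC (4.17 ± 0.22), and 43 of 13389 genes seen on both arrays had a more positive difference. NSC-Ceacam1L was 3.80-fold higher than NSC (1.93 ± 0.22), with 215 of 13809 genes more positive. NSCL61-Ceacam1sh was lower than NSCL61 by -1.07 ± 0.20, just past 2-fold, and this call ended under median scaling (-0.65), spike-in scaling (-0.62) and normexp background correction (-0.998).

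The EGR pair was lower in NSCL61 than in NSC. Egr1 (probe A_51_P367866, NM_007913, mm9 chr18:35024395-35024454, plus strand) read 5.15 on NSCL61-Ceacam1sh, 4.54 on NSCL61, 7.16 on NSC-Ceacam1L and 6.26 on NSC. Egr2 (probe A_55_P2033362, NM_010118, mm9 chr10:67004798-67004857, plus strand) read 1.12 on NSCL61-Ceacam1sh, 1.38 on NSCL61, 3.97 on NSC-Ceacam1L and 3.05 on NSC. For both genes the NSC arrays were above the NSCL61 arrays and NSC-Ceacam1L was the top array. NSCL61 was lower than NSC by -1.71 ± 0.20 for Egr1 (3.28-fold) and -1.67 ± 0.20 for Egr2 (3.19-fold). The differences between NSC-Ceacam1L and NSC were 0.90 ± 0.20 and 0.92 ± 0.20, near 2-fold but under it. Between NSCL61-Ceacam1sh and NSCL61 they were 0.60 ± 0.20 for Egr1 and -0.25 ± 0.20 for Egr2, whose sign turned with median (0.16) and spike-in scaling (0.20).

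Ier3 was seen on 3 of the 4 arrays (probe A_51_P286488, NM_133662, mm9 chr17:35959528-35959587, plus strand). Its level was 5.66 on NSCL61-Ceacam1sh and -6.67 on NSCL61, against 0.79 on NSC-Ceacam1L and 1.77 on NSC. The NSCL61 array was the only one on which Ier3 was not well above background, and the scanner software did not find a spot there. NSCL61-Ceacam1sh was at least 1266.5-fold higher than NSCL61, and NSCL61 was at least 85.7-fold lower than NSC. With 1 spot an array, this rests on a single unfound spot. Normexp background correction gave differences of 8.35 and -4.52, smaller in size than these bounds (10.31 and 6.42 on the log2 scale). NSC-Ceacam1L was lower than NSC by -0.98 ± 0.20, just short of 2-fold, and by -0.60 under spike-in scaling.

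**Figure D3:**
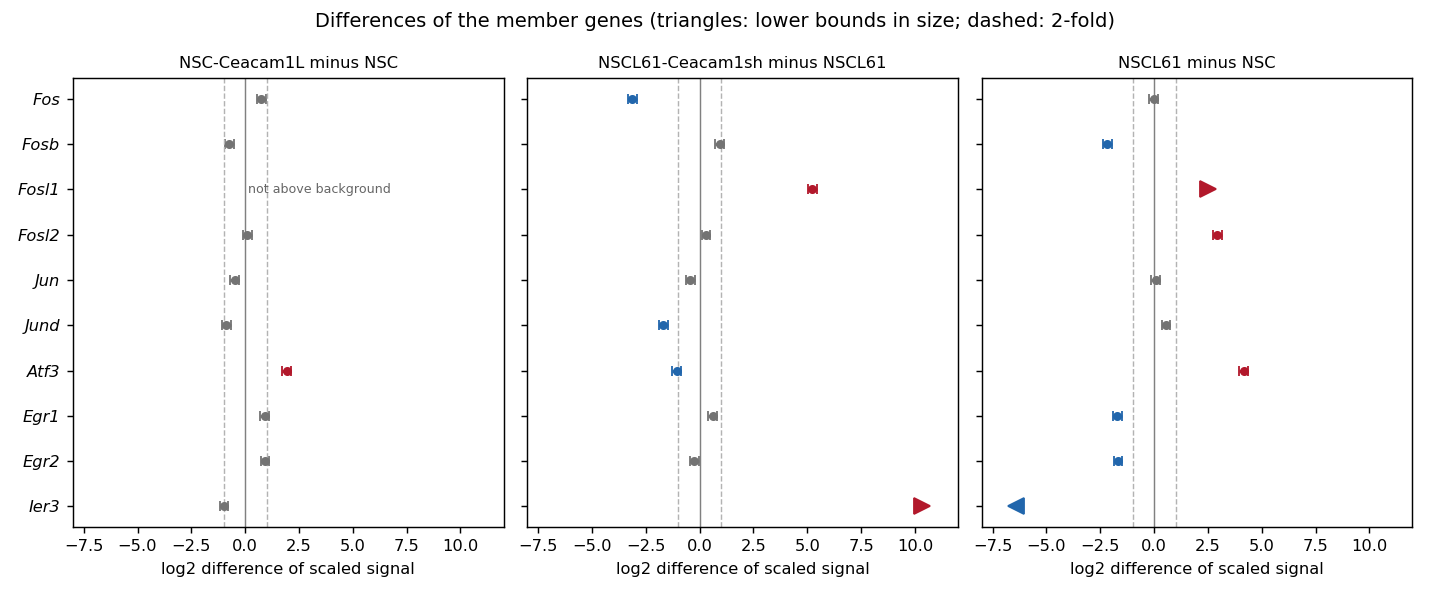
Log2 differences of the 10 genes (horizontal axis) in the 3 comparisons, with the modelled error as bars. Red is higher and blue lower past 2-fold (dashed lines), grey is under 2-fold, and triangles are bounds for genes seen on 1 array. Atf3 alone is past 2-fold between the NSC arrays, against 5 genes between the NSCL61 arrays and 7 between NSCL61 and NSC.

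Between NSCL61-Ceacam1sh and NSCL61, the 10 genes split. Fosl1 and Ier3 were higher, Fos, Jund and Atf3 were lower, and Fosb, Fosl2, Jun, Egr1 and Egr2 stayed under 2-fold. These 5 of 10 genes past 2-fold stand beside 47.7% of the 15620 genes evaluated (23.5% higher and 24.2% lower), and the median difference was 0.02, against 0.01 over all genes. The share of members past 2-fold was thus near the background. Median scaling and spike-in scaling moved the median of all genes by 0.41 and 0.45. Under them Fosb (1.35 and 1.38) and Egr1 (1.02 and 1.052) were past 2-fold, whereas Atf3 (-0.65 and -0.62) was not. No share over all genes is given for these scalings.

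Other genes of the pathway were taken from 5 lists. In each comparison, counts of these lists and of the cell type markers are to be read beside the share of all genes past 2-fold. Of 19 AP-1 target genes evaluated, 16 were higher and 0 lower with the hairpin, with a list median of 2.77. Of these 16, 6 were seen on the NSCL61-Ceacam1sh array alone and entered the count through it. Among the 13 seen on both arrays 10 were higher. With the 6 at their bounds the median was 2.55, and the bound of Plau, the urokinase gene (1.69-fold), was under 2-fold. The higher genes included the stromelysins Mmp3 (at least 1690.6-fold higher) and Mmp10 (at least 129.7-fold), the prostaglandin synthase Ptgs2 (at least 1403-fold) and the cytokine Il6 (at least 125.5-fold). Like that of Fosl1, all bounds given for list genes hold for the background subtraction used here only. The list was chosen with earlier results of these data known, and its genes are also controlled by other factors. The other immediate early genes, 26 evaluated, had 11 higher and 3 lower and a median of 0.75. The higher ones included the ERK phosphatase Dusp2 (4.23), the synaptic gene Arc (3.63), Klf4 (3.52) and the matricellular gene Ccn1 (3.39). In the other direction were the antiproliferative gene Btg2 (-3.09), the small GTPase Rhob (-1.39) and Npas4 (-1.01).

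Of 14 other bZIP genes, 4 were higher and 4 lower (28.6% each, median 0.11), beside 23.5% higher and 24.2% lower of all genes. The small Maf proteins, partners without an activation domain, were all higher, with Maff at 2.99, Mafk at 1.32 and Mafg at 1.15, as was Cebpb (2.28). The large Maf gene Maf (-3.55), Batf3 (-1.67), the AP-1 repressor Jdp2 (-1.51) and the stress gene Ddit3 (-1.37) were lower. Of 18 MAP kinase genes, 4 were higher and 4 lower (22.2% each, median -0.02), which is near the shares of all genes. The p38-activating kinases Map2k3 (3.58) and Map2k6 (2.45) and the ERK-activated kinase Rps6ka3 (2.47) were higher, as was Map2k4 (1.24). The neural JNK gene Mapk10 (-4.68), Map3k1 (-2.32), the JNK-activating kinase Map2k7 (-2.14) and the JNK gene Mapk9 (-1.06) were lower. Of 8 genes of serum response factor, its cofactors and the EGR corepressors, the corepressor Nab1 (2.51) and the ETS factor Elk3 (1.66) were higher and none lower.

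Cell type markers moved between the same 2 arrays. Of 7 astrocyte markers 7 were lower on NSCL61-Ceacam1sh, where Gfap, S100b and Slc1a2 were not well above background, and their summed scaled signal (linear, in units of the 75th percentile) was 3.83, against 689 on NSCL61. Such sums follow the brightest probes and are given per list for 1 array against another. Of 10 neural stem cell markers 7 were lower and 1 higher, with a sum of 41.2 on NSCL61-Ceacam1sh, mostly Nes, and 524 on NSCL61, of which Fabp7 gave 62.9%, and Hes5 was not well above background on the first and Prom1 on the second. Of 6 fibroblast and mesenchymal markers evaluated 5 were higher and 1 lower, with sums of 21.7 on NSCL61-Ceacam1sh and 0.397 on NSCL61, and Lum and Fap were not well above background on either array. Among the 3 fibroblast markers seen on both arrays, 3 were higher and 0 lower. Microglial markers summed to 12.9 and endothelial ones to 8.63 on NSCL61-Ceacam1sh, against 28.4 and 13.9 on NSCL61. The endothelial sums were almost wholly Kdr (97.8% on NSCL61-Ceacam1sh and 98.3% on NSCL61) and the microglial ones mostly Itgam and Csf1r (93.6% on NSCL61-Ceacam1sh and 93.2% on NSCL61), while Ptprc, Aif1, P2ry12, Tyrobp, Tek, Cldn5 and Emcn were not well above background on either array. The part of these markers in the differences of the 10 genes was not tested. In such bulk samples, fewer cells of a type and less RNA in each cell cannot be told apart.

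Between NSC-Ceacam1L and NSC, Atf3 was the 1 gene past 2-fold. Of 9 genes evaluated (all but Fosl1), it was higher and none was lower, beside 10.5% higher and 6.05% lower of 15313 genes, with a median of 0.10, against -0.10 over all genes. Fos, Egr1 and Egr2 lay on the positive side and Fosb, Jun, Jund and Ier3 on the negative side, each under 2-fold. Under spike-in scaling the negative ones were smaller in size, with Fosb at -0.36, Jun at -0.11, Jund at -0.49 and Ier3 at -0.60. Fos, Egr1 and Egr2 passed 2-fold under other scalings. Fos was 1.17, 1.12 and 1.14, Egr1 1.40, 1.33 and 1.28 and Egr2 1.14, 1.18 and 1.31 under quantile normalization, cyclic loess and spike-in scaling, which shifted the median of all genes by 0.13, 0.23 and 0.38. The count of members higher was then 4. No share over all genes is given for these scalings, so this count is not read as a result about the members.

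Of 27 other immediate early genes evaluated between NSC-Ceacam1L and NSC, 9 were higher and 1 lower (median 0.68). Putting bounds in for those detected on a single array made the median 0.48. Ccn1 (3.33), the mRNA decay factor Zfp36 (2.97) and Csrnp1 (2.05) were higher, and Nr4a3, seen on NSC-Ceacam1L only, is counted by its measured difference, with a bound (at least 1.28-fold higher) under 2-fold. Without it 8 were higher. Klf10 (-1.83) was lower. Of 14 other bZIP genes 2 were higher, Junb (1.96), a further Jun protein, and Cebpd (1.54), with a median of 0.61. Of 12 AP-1 target genes 2 were higher and 3 lower (median 0.11), and among the 8 seen on both arrays 0 were higher and 2 lower. Ptgs2 was at least 5.03-fold and the keratin Krt18 at least 3.80-fold higher, whereas Vegfa (-3.93) and Ccnd1 (-1.13) were lower and Sprr1a at least 2.20-fold lower. Mapk10 (1.77) was the 1 MAP kinase gene of 18 past 2-fold (median -0.25), and the EGR corepressor Nab2 (-1.34) the 1 gene of 8 in its list (median -0.31). Of 7 astrocyte markers 5 were higher (median 2.12), with summed signals of 529 on NSC-Ceacam1L and 283 on NSC, and of 4 fibroblast markers 2 were higher (sums 13.6 on NSC-Ceacam1L and 2.35 on NSC). Thy1 alone made 96.1% of the sum on NSC-Ceacam1L and 85.1% on NSC, and Col1a1 (-0.72) and Col1a2 (0.75) were under 2-fold. Pdgfrb, the other higher marker, was seen on NSC-Ceacam1L only (at least 3.06-fold). Of 10 neural stem cell markers 0 were past 2-fold (sums 538 on NSC-Ceacam1L and 744 on NSC), all 10 were well above background on both arrays, and the part of these markers was not tested.

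Between NSCL61 and NSC, 8 of the 10 genes were well above background on both arrays, and levels differed in both directions. Atf3, Fosl2 and Fosl1 were higher in NSCL61 and Fosb, Egr1, Egr2 and Ier3 lower, while Fos, Jun and Jund stayed under 2-fold. That is 7 of 10 genes past 2-fold, beside 28.4% of 15299 genes (14.4% higher and 14.0% lower). The median was 0.02, against 0.03 over all genes, since the members went both ways. Each of these 7 calls was made in the same direction under all 7 alternatives run for the differences. The NSC and NSCL61 arrays also stand in the comparisons above, so the differences are not independent of those.

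**Figure D4:**
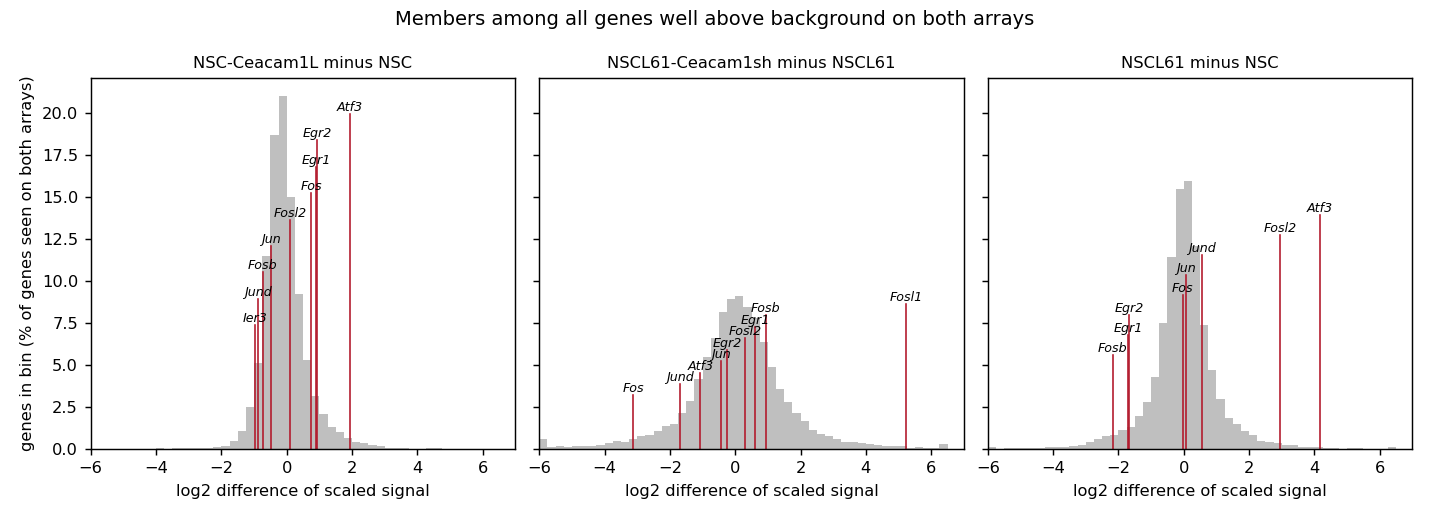
Share of genes (vertical axis, percent of genes well above background on both arrays) in bins of the log2 difference (horizontal axis, end bins hold all genes beyond them) for the 3 comparisons, with the members seen on both arrays as red lines whose height has no meaning. Fosl1 at 5.24 with the hairpin and Atf3 at 4.17 in NSCL61 lie in the far right of their distributions, and Fos at -3.12 with the hairpin in the left.

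Other bZIP genes were higher in NSCL61 in 8 of 15 cases and lower in 1 (median 1.02), led by the acute-phase factor Cebpd (3.83), the stress factor Ddit3 (3.52), Maf (2.12) and Cebpb (1.86). Of 13 AP-1 target genes 8 were higher and 2 lower (median 3.03). Setting those detected on a single array to their bounds made the median 2.64. Among the 9 seen on both arrays, 4 were higher and 2 lower. The 8 higher genes included the epithelial gene Sprr1a (6.04), the cytokine Lif (at least 10.67-fold higher) and osteopontin Spp1 (at least 14.7-fold), and the lower ones were Ccnd1 (-2.28) and Timp1 (-1.14). Other immediate early genes were divided, 8 higher and 9 lower of 26 (median 0.48). Ier5 (2.76), Csrnp1 (2.34), Rhob (1.59) and the kinase Sik1 (at least 6.19-fold) were higher, and Arc (-5.75), the EGR relative Egr4 (-3.30), the orphan receptor Nr4a1 (-1.67) and Dusp2 (-1.48) lower.

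Of 18 MAP kinase genes, 5 were higher and 2 lower in NSCL61 than in NSC (median -0.00), with Mapk10 (3.32), Map2k7 (1.68), the ERK gene Mapk3 (1.31) and Rps6ka1 (1.21) higher and Map2k6 (-3.22) and Map2k3 (-1.15) lower. Nab1 (-1.02) was the 1 gene past 2-fold of 8 in its list (median -0.06). Of 7 astrocyte markers 5 were higher and 1 lower in NSCL61, with sums of 689 in NSCL61 and 283 in NSC. Of 10 neural stem cell markers 2 were lower (524 in NSCL61 and 744 in NSC), and of 4 fibroblast markers 1 was higher and 2 lower (0.397 in NSCL61 and 2.35 in NSC). Thy1 (-4.20) made 85.1% of the sum in NSC, and the higher marker, Col3a1, has a bound of 1.41-fold. Of 4 microglial and 3 endothelial markers evaluated, 2 and 1 were higher, with sums of 28.4 and 13.9 in NSCL61 and 21.6 and 10.8 in NSC. The endothelial one, Cdh5, has a bound of 1.61-fold, and of the microglial ones Cx3cr1 was seen on NSCL61 only (at least 2.71-fold). Whether these markers bear on the 10 genes was not tested.

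**Figure D5:**
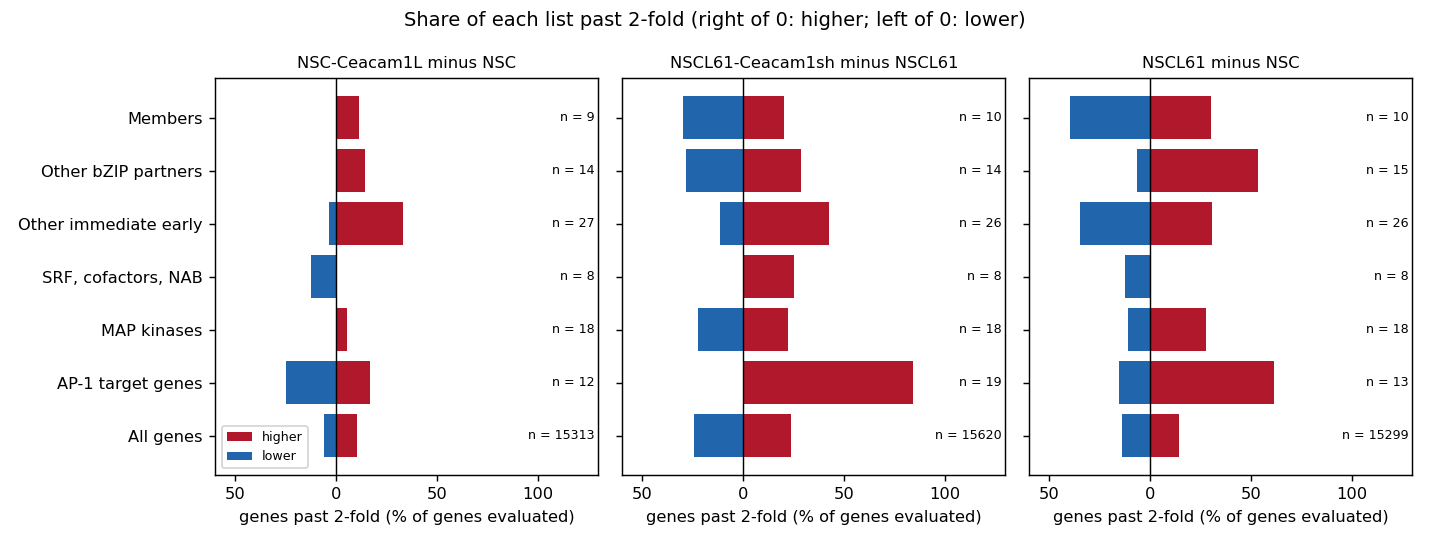
Share of genes past 2-fold (horizontal axis, percent of genes evaluated, higher to the right of 0 and lower to the left) for the 10 members, 5 pathway lists and all genes, in the 3 comparisons. AP-1 target genes, a list chosen with earlier results of these data known, have 16 of 19 higher and 0 lower with the hairpin. Of these 16, 6 were seen on NSCL61-Ceacam1sh alone, and among the 13 seen on both arrays 10 are higher. Members have 2 of 10 higher and 3 lower there.

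Genes with the profile most like a member's over the 4 arrays were sought among 12476 other genes well above background on all of them, by the Euclidean distance between log2 profiles centred on their own means. For Atf3, with a range of 4.17 over the arrays, they were Cebpd, Ifitm10 and Parp3, at distances of 0.40, 0.45 and 0.62. For Fos (range 3.90) they were Rnft2, Fam174b and Slc12a5, at 0.16, 0.22 and 0.25, and for Fosl2 (range 3.24) Efna1, Cracr2b and Avpi1, at 0.27, 0.29 and 0.39. With 4 arrays such likeness describes these arrays only. Cebpd read 5.97 on NSCL61-Ceacam1sh, 6.63 on NSCL61, 4.34 on NSC-Ceacam1L and 2.80 on NSC, which is the order of Atf3.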

How the data were processed

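Total RNA (0.5 µg, Cy3) from 4 cultures was hybridised to 1 single-colour Agilent array each (design 028005). The intensity values (processed signal with its modelled error, background-subtracted within the array) were deposited by the authors. Per the file headers, the software was Agilent Feature Extraction in version 10.7.3.1 (GE1_107_Sep09). The submitters' processing notes give version 9.1 of it. Flags for spots well above background, found, saturated or outlying come from the same deposited files, and gene names from the NSCL61 file. The authors also deposited processed log2 values. Their differences between arrays had slopes of 0.9997 to 0.9999 against those of the scanner signals (Pearson correlation across probes 0.9998 to 1.0000), with offsets of -0.22, -0.27 and 0.14, so scale and direction were settled. The median of all genes moved by 0.02, 0.04 and 0.01 against the scaling used here, so the centring lay close to the 75th percentile, although its exact rule is not given in the sources used here. The column medians were 0.03, 0.00, -0.20 and 0.25 for NSCL61-Ceacam1sh, NSCL61, NSC-Ceacam1L and NSC.

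Signals of 59305 non-control spots were divided by the 75th percentile of each array and taken to log2, 143 to 187 outlier spots an array were left out, and spots of a probe were averaged. A probe was well above background if at least 50% of its spots were. Probes were named in the RefSeq table of GRCm38.p6 through accessions (27325), symbols (3523) or older symbols (551), and 24282 stayed unnamed. Where a gene had several probes, the brightest on average stood for it. The modelled error had a median of 0.15 on every array, over probes above background, and the median SD between spots of probes printed 10 times was 0.06.

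All 10 members were described. From each pathway list, up to 4 genes past 2-fold in each direction were named, and for the 3 members with the largest range among those seen on all arrays, the 3 nearest genes. Some genes that this rule takes are not reported here. The members and lists were chosen with earlier results of these data known. Alternatives were quantile normalization, cyclic loess and normexp (offset 50; limma 3.58.1, R 4.3.3), median scaling, scaling to 8 spike-in probes, the deposited table, the mean of all probes, a 1.5-fold threshold and no filter on dim probes. Calls were tested on simulated data with known folds, whose outcome is not reported here and which cannot stand in for replicate arrays.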

Additional observations from a re-analysis of the deposited data

How the results depend on the processing

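Each of the 10 genes was recomputed under 7 alternatives, and counts under 9. No called difference of a member reversed under the 7 alternatives run. The median difference of the members between NSC-Ceacam1L and NSC was 0.10, against 0.48 under spike-in scaling, 0.30 under cyclic loess and -0.38 with the mean of all probes, where the dim probe of Fosl2 enters. Between NSCL61-Ceacam1sh and NSCL61 it was 0.02, against 0.44 with median and 0.47 with spike-in scaling, and between NSCL61 and NSC it was 0.02, against -0.20 under spike-in scaling. The 1 member past 2-fold between NSC-Ceacam1L and NSC became 2 under median scaling, 4 under each of spike-in scaling, quantile normalization and cyclic loess, 7 at 1.5-fold and 2 with no filter on dim probes, which adds Fosl1. The pathway and marker lists together had 50 genes past 1.5-fold there, against 26 past 2-fold. No share over all genes is given beside the counts under these alternatives, so they are not read as a result about the members. Normexp, whose offset draws differences of dim signals toward 0, gave 1.53 for Fosl1 and -4.52 for Ier3 between NSCL61 and NSC, and 8.35 for Ier3 between NSCL61-Ceacam1sh and NSCL61, against measured values of 4.55, -8.45 and 12.33. The normexp values were smaller in size than the bounds given above for these genes, which do not hold under that correction. Other causes were not tested. No paired analysis was possible because each group had 1 array. Fosl1 in NSC cells and Ier3 in NSCL61 are limited by signal over background.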

Other observations

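Since Ier3 rested on 1 spot that was not found on the NSCL61 array, the protein-coding genes beside it on chromosome 17 were read as values, chosen after seeing that result. Ddr1, the collagen receptor on one side, read 2.08 on NSCL61-Ceacam1sh, 6.50 on NSCL61, 4.51 on NSC-Ceacam1L and 4.32 on NSC. Flot1, the membrane scaffold gene on the other side, read 3.16 on NSCL61-Ceacam1sh, 4.65 on NSCL61, 3.04 on NSC-Ceacam1L and 2.43 on NSC. Both were well above background on all 4 arrays, as were Vars2, Gtf2h4, Tubb5 and Mdc1, the next genes outward. On NSCL61 Ier3 was the only one of these 7 genes not seen. These genes are read by other spots, and whether the Ier3 spot failed was not tested.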
